A study of Mus musculus with 6 samples.

Results

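The 7 genes H2-Aa, H2-Ab1, H2-Eb1, H2-DMa, H2-DMb1, Cd74 and Ciita carry the MHC class II pathway, from peptide-binding chains to their transcriptional switch. They were taken by name from a count table of 24537 gene symbols, and all 7 were found. The table holds 6 mouse brain tumor libraries raised by in utero electroporation, where an electric pulse drives DNA into cells of the embryonic brain. By their titles all 6 tumors, from CD-1 IGS mice, carried PdgfraD482V, a mutant PDGF receptor, and DNp53, a dominant-negative p53. In 3 of them FOXR2, a forkhead transcription factor, was added, and the other 3 are titled Control. The labels do not give the age of the mice, the promoters of the constructs or whether each tumor came from its own animal. A sample sheet deposited beside the counts names the opposite group for 6 of 6 libraries, so libraries are called by their titles here. Every direction between groups turns round if the sheet is right, while the description of each single library does not depend on it.

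MHC class II molecules are pairs of an alpha and a beta chain that show peptides from engulfed proteins to CD4+ T cells. Cd74, the invariant chain, fills the groove during assembly, and the H2-DM pair of H2-DMa and H2-DMb1 later swaps its last fragment for a peptide. Ciita binds no DNA itself but docks on factors at class II promoters and switches the genes on. Macrophages, dendritic cells and B cells are the usual carriers, interferon gamma induces Ciita in many other cell types, and in the brain class II marks activated microglia and macrophages. The 7 genes were chosen because earlier results on these libraries showed levels that differed between them, so their levels are given as a description, and no test is read from them.

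Promoters are shown to compare the control elements of these genes, and sequences of 4 of the 7 genes were in the RefSeq table used (GRCm38.p6), which spans 250 bases before to 50 bases after each start. Factors of the RFX family bind the X box of class II promoters and NF-Y binds the Y box, which holds an inverted CCAAT. In the stretches below, read 5′ to 3′ on the gene's strand, capitals mark GNAACT, within the X box region, and GATTGG, within the Y box. They lie at chr17:34287847-34287924 (minus strand) for H2-Aa, chr17:34305756-34305832 (plus) for H2-Eb1, chr17:34153077-34153154 (plus) for H2-DMb1 and chr17:34122732-34122811 (plus) for H2-DMa.
H2-Aa: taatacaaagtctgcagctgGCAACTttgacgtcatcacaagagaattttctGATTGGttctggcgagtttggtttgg
H2-Eb1: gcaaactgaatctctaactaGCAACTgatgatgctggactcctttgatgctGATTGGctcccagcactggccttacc
H2-DMb1: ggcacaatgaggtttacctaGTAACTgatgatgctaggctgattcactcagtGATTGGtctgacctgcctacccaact
H2-DMa: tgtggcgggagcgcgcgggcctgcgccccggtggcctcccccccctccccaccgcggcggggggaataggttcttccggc

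In H2-Aa and H2-DMb1 the elements stand 26 bases apart, and in H2-Eb1 25. The spaced pair was written down from these 3 promoters, so their match is by construction. Searched on both strands, GNAACT followed by GATTGG after 25 or 26 bases occurred in 14 of 32851 promoter windows (0.0426%), H2-Eb2 among them. Alone, GATTGG was in 16.1% of the windows and GNAACT in 42.8%. H2-DMb2, H2-Oa and H2-Ob lacked the spaced pair as spelled here, though each held GATTGG. In H2-Oa and H2-Ob GCAACA, which GNAACT does not match, stood ahead of GATTGG. Other spellings of the X box were not searched, so a missing match does not show a missing X box. Both windows of H2-DMa also lacked the spaced pair. The second of them, at 39.0% G and C, held GATTGG and GNAACT at another spacing or order. The one shown held neither and was 73.0% G and C, against 50.7% for H2-Aa, 48.0% for H2-Eb1 and 47.3% for H2-DMb1. These matches are letters in a window and do not measure binding. Which H2-DMa start these tumors use was not tested, so the promoter in use may lie outside both H2-DMa windows.

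The libraries held 13429489 to 17927025 counts, and 3 counts, taken as the floor, came to 0.174 to 0.219 CPM, the count divided by library size and its TMM scaling factor. Of 8 glioma and neural lineage markers, such as Olig1 and Sox2, the sum lay between 5058 and 8497 CPM in the 6 libraries. Counts of Foxr2 itself were 22, 1 and 7 under the FOXR2 title and 4, 10 and 7 under the Control title, so it does not settle which labels are right. FOXR2 replicate 2 stood apart in 18 microglia and macrophage markers. Their sum was 1701 CPM there and 6.13 to 14.8 CPM in the other 5 libraries, and all 18 had over 50% of their summed CPM in that library, also called the macrophage-rich library here. C1qa, of complement, was at 228 CPM in it and at 0.179 to 0.839 CPM elsewhere. Csf1r, the receptor that macrophages need to survive, was at 125 CPM against 0.0596 to 0.290 CPM. Ptprc, the pan-leukocyte antigen CD45, was at 19.4 CPM against 0 to 0.300 CPM. In such bulk samples fewer cells of a type and less RNA per cell cannot be told apart.

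The A molecule and the invariant chain were led by that library. H2-Aa, the alpha chain of the A molecule, was at 0.783, 60.2 and 5.84 CPM across FOXR2 replicates 1 to 3. Across Control replicates 1 to 3 it was at 0.480, 0.775 and 0.813 CPM. FOXR2 replicate 2 was thus 10.3-fold above the next library, FOXR2 replicate 3, while FOXR2 replicate 1 lay among the libraries titled Control. H2-Ab1, the beta chain, had the same order at the top, with 1.37, 36.8 and 5.11 CPM in the libraries titled FOXR2. It stood at 1.32, 1.97 and 1.63 CPM in those titled Control, and the groups overlapped through FOXR2 replicate 1. Cd74 was the most abundant of the 7 in FOXR2 replicate 2, at 165 CPM, with 1.501 CPM in replicate 1 and 13.6 CPM in replicate 3. In the libraries titled Control it was at 2.52, 5.01 and 2.15 CPM. FOXR2 replicate 1 was the lowest of the 6 libraries for Cd74, and replicate 2 was 12.1-fold above replicate 3.

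**Figure D1:**
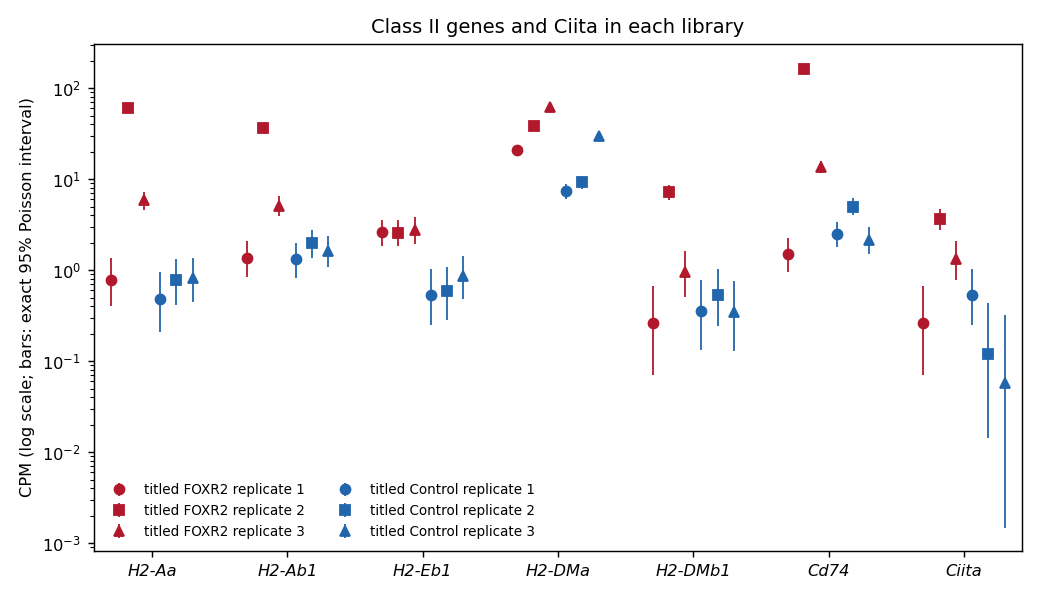
CPM (log scale) of each of the 7 genes in each library. Points are single libraries, red for those titled FOXR2 and blue for those titled Control, and bars are exact 95% Poisson intervals of the counts. H2-Aa, H2-Ab1, H2-DMb1 and Cd74 peak in FOXR2 replicate 2, while H2-Eb1 is near 2.7 CPM in each of the 3 libraries titled FOXR2.

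H2-DMb1, the beta chain of the peptide exchanger, was at 0.261, 7.21 and 0.949 CPM across FOXR2 replicates 1 to 3. Its values across Control replicates 1 to 3 were 0.360, 0.536 and 0.349 CPM. It peaked in the macrophage-rich library, 7.60-fold above FOXR2 replicate 3, and the other libraries held 4 to 13 counts each. Of the 51-base windows in its annotated transcripts, 22.3% also occur in H2-DMb2, a near-identical neighbour, so how reads were shared between these genes is uncertain. H2-DMb2 had 38 counts in FOXR2 replicate 2 and 0 to 5 elsewhere.

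Ciita was scarce throughout. It had 4, 57 and 18 counts across FOXR2 replicates 1 to 3 and 9, 2 and 1 across Control replicates 1 to 3. This came to 0.261, 3.61 and 1.31 CPM against 0.540, 0.119 and 0.0581 CPM. FOXR2 replicate 2 was 2.75-fold above replicate 3, a smaller lead than for H2-Aa, H2-Ab1, H2-DMb1 or Cd74. Control replicates 2 and 3 were below the level of 3 counts, and differences among the lower 4 libraries rest on few counts.

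H2-Eb1, the beta chain of the E molecule, had a pattern of its own. Its level was 2.61, 2.59 and 2.77 CPM under the FOXR2 title, and 0.540, 0.596 and 0.871 CPM under the Control title. The groups did not overlap, with 2.66 ± 0.0990 against 0.669 ± 0.178 CPM (SD, n = 3 each). The macrophage-rich library was the lowest of the 3 titled FOXR2. Counts were 38 to 41 against 9 to 15, so the exact 95% Poisson interval was 1.86 to 3.52 CPM in FOXR2 replicate 2 and 0.488 to 1.44 CPM in Control replicate 3. Intervals and floors here cover counting error only.

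H2-DMa, the alpha chain of the exchanger, was not led by the macrophage-rich library. It was at 21.1, 38.4 and 61.8 CPM across FOXR2 replicates 1 to 3 and at 7.38, 9.30 and 29.6 CPM across Control replicates 1 to 3. FOXR2 replicate 3 led, replicate 2 came next and Control replicate 3 was above FOXR2 replicate 1, so the groups overlapped. Of the 51-base windows in its transcripts 8.39% lie opposite Brd2, a chromatin reader gene on the other strand. The library kit kept strand, but whether the authors counted by strand is not given in the sources used here. The other 6 genes shared at most 1.42% of such windows with a gene on the opposite strand. H2-Aa shared 0.462% with other genes on the same strand, and H2-Ab1, H2-Eb1, Cd74 and Ciita shared none.

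Levels per transcript length ordered the genes differently in the macrophage-rich library and in the rest. In FOXR2 replicate 2 the order was Cd74 at 117 CPM per kilobase, H2-Aa at 53.4, H2-Ab1 at 30.3, H2-DMa at 23.2, H2-DMb1 at 5.14, H2-Eb1 at 1.55 and Ciita at 0.600. As the median of the other 5 libraries H2-DMa led at 12.7 CPM per kilobase. Cd74 followed at 1.79, H2-Ab1 at 1.34, H2-Aa at 0.694, H2-Eb1 at 0.522, H2-DMb1 at 0.256 and Ciita at 0.0434.

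The share of each gene's summed CPM that lay in the macrophage-rich library differed widely among the 7. It was 87.4% for H2-Aa, 86.9% for Cd74, 76.3% for H2-Ab1, 74.6% for H2-DMb1 and 61.1% for Ciita. For H2-Eb1 it was 25.98% and for H2-DMa 22.9%. The macrophage marker sum itself had 97.1% there. Thus 5 of the 7 genes had over 50% in that library, where 3.25% of the 13617 table rows with at least 50 counts did, and the median share of those rows was 16.0%. The same 5 were highest in FOXR2 replicate 2, as were 17.2% of those rows. Since the genes were proposed from these levels, the counts are a description.

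**Figure D2:**
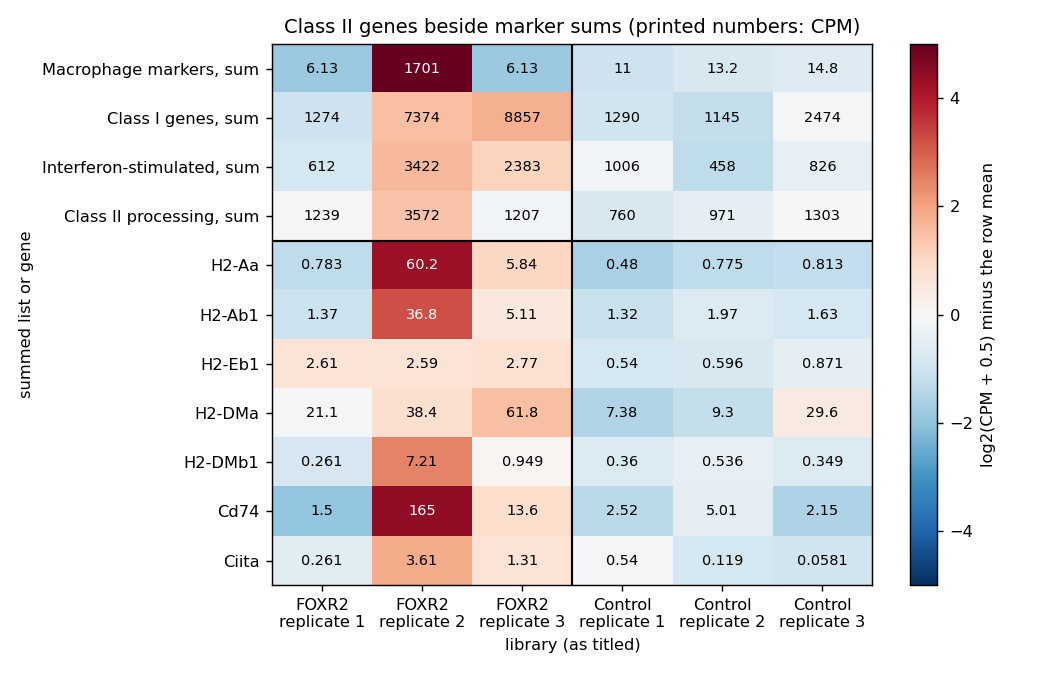
Heat map of log2(CPM + 0.5) minus the row mean, with the CPM printed in each cell, for 4 summed gene lists (above the line) and the 7 genes (below it) in the 6 libraries. The macrophage sum is high in FOXR2 replicate 2 alone (1701 CPM), while the class I sum and the interferon-stimulated sum are high in both FOXR2 replicates 2 and 3.

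FOXR2 replicate 3 was second for H2-Aa, H2-Ab1, H2-DMb1, Cd74 and Ciita and first for H2-Eb1 and H2-DMa, although its macrophage sum, 6.13 CPM, was the lowest with that of FOXR2 replicate 1. In this library 2 of the 18 macrophage markers were at 0 counts and C1qa, C1qb and C1qc came to 0.511 CPM together. To set the genes against macrophage content, the counts of FOXR2 replicate 2 were scaled down by the marker sum of each other library. For H2-Aa this gives 2.97 counts in FOXR2 replicate 3, where 80 were seen, a ratio of 26.9 (exact 95% Poisson interval 21.3 to 33.5). For Cd74 the ratio there was 23.0 (19.8 to 26.6), for H2-Ab1 38.6 (30.1 to 48.7), for H2-DMb1 36.5 (19.4 to 62.4) and for Ciita 101 (59.9 to 160). In FOXR2 replicate 1 H2-Aa was at 3.60 times the scaled value (1.86 to 6.30). In the libraries titled Control it was at 1.23 to 1.66 times and each interval included 1, which changed with the marker list used. Cd74 was at 1.5 to 3.93 times and H2-Ab1 at 5.08 to 6.91 times. H2-Eb1 was at 29.7 to 297 times and H2-DMa at 29.6 to 447 times over the 5 libraries, with every interval above 1. All these intervals take the scaled value as fixed. Counting error in the marker sums and in FOXR2 replicate 2 is left out, so the intervals are too narrow.

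**Figure D3:**
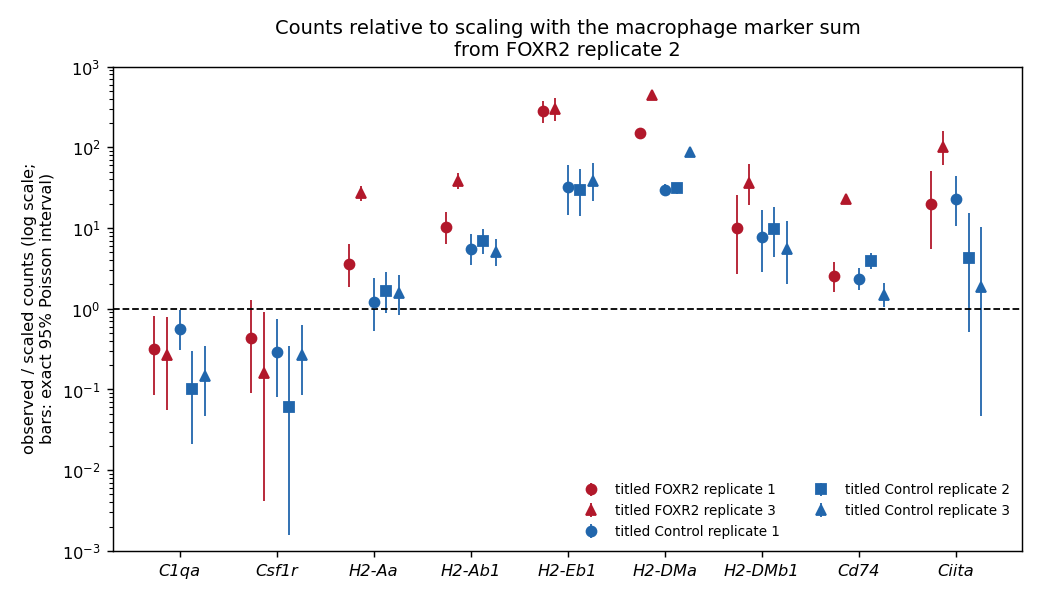
Observed counts divided by the counts of FOXR2 replicate 2 scaled with the macrophage marker sum (log scale), in the other 5 libraries. Bars are exact 95% Poisson intervals of the observed counts, with the scaled value taken as fixed. The dashed line marks equality. H2-Aa in the libraries titled Control lies nearest to the line, FOXR2 replicate 3 lies above it for all 7 genes, and C1qa and Csf1r lie below it.

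The scale itself has limits. Outside FOXR2 replicate 2 few of the markers were well counted, and Cd68, a lysosomal protein, made up 41.8% to 80.5% of the sum in the libraries titled Control but 6.98% in FOXR2 replicate 2. With the 3 C1q genes, at 7 counts in FOXR2 replicate 3, in place of the list, the ratio there was 132 for H2-Aa and 113 for Cd74. With 10 pan-leukocyte and myeloid genes it was 2.61 and 2.23. For H2-Aa in Control replicates 1, 2 and 3 the C1q genes gave ratios of 2.10, 16.7 and 13.5, the last 2 with intervals above 1. The pan-leukocyte genes gave 0.0993, 0.255 and 0.143 for the same libraries, with all 3 intervals below 1. In that list Coro1a, which is not confined to leukocytes, made up 80.0% to 92.1% of the sum outside FOXR2 replicate 2. FOXR2 replicate 3 stayed above the scaled value for all 7 genes with each of the 3 lists.

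Markers of dendritic cells and B cells, the other usual carriers of class II, were low. Those of T and NK cells, monocytes, neutrophils and endothelium were low as well. Of the 10 dendritic cell markers the sum was 37.7 CPM in FOXR2 replicate 2 and 5.28 to 7.59 CPM elsewhere. Itgax, which microglia and macrophages also express, gave 31.6 CPM of it, and Cd209a was at 0 in all 6 libraries. The 6 B cell markers summed to 0 to 0.759 CPM, with Ms4a1 at 0 throughout. The 8 T and NK cell markers summed to 8.16 CPM in FOXR2 replicate 2 and 1.96 to 7.08 CPM elsewhere, the 7 monocyte and neutrophil markers to 0.407 to 2.47 CPM, and the 6 endothelial markers to 1.39 to 15.2 CPM. In these 8 marker lists edgeR and limma-voom called 0 genes. DESeq2 also called 0, but gave no adjusted p to any macrophage or B cell marker and to 1 of the 10 pan-leukocyte markers only. With edgeR an unadjusted p under 0.05 was found for 1 of 3 macrophage, 1 of 3 pan-leukocyte, 0 of 2 dendritic, 0 of 2 T and NK, 1 of 1 monocyte, 1 of 2 endothelial and 1 of 8 neural markers tested, with no B cell marker tested. Over all 13101 genes that edgeR tested, 24.9% had such a p, and 0.908% were called higher and 1.38% lower. The part of any of these cells in the class II levels was not tested.

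Ratios between partner genes within a library need no scaling between libraries. H2-Aa to H2-Ab1, per transcript length, was 1.76 in FOXR2 replicate 2 and 1.23 in replicate 3, but 0.391 to 0.614 in the other 4 libraries. H2-Eb1 to H2-Ab1 was 0.0512 in FOXR2 replicate 2, 0.394 in replicate 3 and 1.38 in replicate 1, with 0.220 to 0.389 in the libraries titled Control. H2-DMa to H2-DMb1, which form a pair as proteins, was 4.51 in FOXR2 replicate 2 and 14.7 to 72.0 in the others. The macrophage-rich library was an extreme for each of these 3 pairs, but not for Cd74 to H2-Aa, which was 2.18 there and 1.53 to 5.17 in the others.

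**Figure D4:**
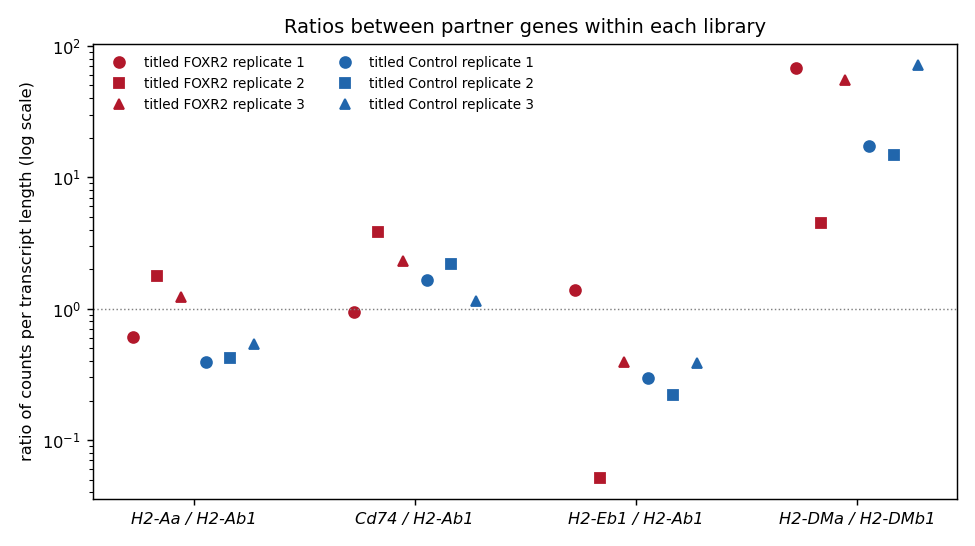
Ratio of counts per transcript length (log scale) between partner genes in each library, red for libraries titled FOXR2 and blue for those titled Control. FOXR2 replicate 2 (red squares) has the highest H2-Aa to H2-Ab1 and Cd74 to H2-Ab1 ratios and the lowest H2-Eb1 to H2-Ab1 and H2-DMa to H2-DMb1 ratios.

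Comparison of the libraries titled FOXR2 with those titled Control was fitted across 13101 genes with edgeR's quasi-likelihood test, and a gene was called at a Benjamini-Hochberg adjusted p under 0.05. H2-Aa, H2-Ab1, H2-Eb1, H2-DMa and Cd74 passed the filter on low counts, and H2-DMb1 and Ciita did not. The fitted log2 fold changes (± standard error, FOXR2 minus Control) were 5.0 ± 1.46 for H2-Aa, 4.21 ± 1.47 for Cd74, 3.13 ± 1.09 for H2-Ab1, 1.98 ± 0.44 for H2-Eb1 and 1.39 ± 0.61 for H2-DMa. With no filter they were 2.78 ± 1.12 for Ciita and 2.70 ± 1.10 for H2-DMb1. Of the 5 fitted genes 0 were called, and 4 had an unadjusted p under 0.05, as did 24.9% of all genes tested. DESeq2 called 4 of the 7 higher, where it called 6.73% of 13992 genes higher and 6.70% lower. Limma-voom called 0 of 5, beside 0.649% higher and 1.21% lower over all genes. With edgeR 0.908% of all genes were called higher and 1.38% lower, and in 13.1% every library titled FOXR2 was above every library titled Control, as for H2-Eb1. Nothing is read from these counts, since the genes were chosen on this contrast.

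The sizes of these fold changes rested in part on single libraries. Without FOXR2 replicate 2 the log2 fold change was 2.25 for H2-Aa, 1.23 for Cd74 and 0.98 for H2-Ab1. It was 1.99 for H2-Eb1 and 1.42 for H2-DMa. Leaving out FOXR2 replicate 3 gave 0.94 for H2-DMa, and leaving out Control replicate 3 gave 2.27. For Ciita, 4.17 was fitted without Control replicate 1.

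The factors that bind class II promoters were present in all 6 libraries. All 7 of Rfx5, Rfxank, Rfxap, Nfya, Nfyb, Nfyc and Creb1 were tested, 0 were called by edgeR in either direction, and 1 had an unadjusted p under 0.05 (limma-voom and DESeq2 called 0). With edgeR 24.9% of all genes tested had an unadjusted p under 0.05. The median log2 fold change of the 7 factors was 0.23, and 0.10 without FOXR2 replicate 1, beside 0.011 over all genes tested. Rfx5, the large RFX subunit, averaged 14.1 ± 2.09 CPM under the FOXR2 title and 9.13 ± 1.49 CPM under the Control title (SD, n = 3 each; edgeR adjusted p = 0.201). The means of Nfya were 60.1 ± 10.3 and 45.9 ± 1.34 CPM (edgeR adjusted p = 0.242), and those of Creb1 58.4 ± 9.73 and 49.8 ± 6.65 CPM (edgeR adjusted p = 0.514). Their sum over the list ranged from 197 to 263 CPM.

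The 9 genes on the path from interferon gamma to Ciita summed to 1413 and 1320 CPM in FOXR2 replicates 2 and 3 and to 406 to 537 CPM in the other 4 libraries. Ifng, the cytokine, had 0 counts in all 6 libraries, where the floor of 3 counts was 0.174 to 0.219 CPM. Irf1, a transcription factor that acts on the Ciita promoter, was at 43.7, 167 and 117 CPM across FOXR2 replicates 1 to 3 and at 45.6, 33.8 and 41.2 CPM across Control replicates 1 to 3. Only the macrophage-rich library and FOXR2 replicate 3 stood out. Socs1, the feedback inhibitor, was at 13.9, 40.3 and 21.8 CPM against 7.92, 3.75 and 8.48 CPM. Of 8 tested genes 0 were called by edgeR and 3 had an unadjusted p under 0.05, against 24.9% of all genes, with a median log2 fold change of 0.43. The edgeR adjusted p were 0.112 for Irf1 and 0.0775 for Socs1. DESeq2 called 3 of the 8 higher, Irf1 and Socs1 among them, against 6.73% of all genes, and limma-voom 0.

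The sums of MHC class I genes and of interferon-stimulated genes had the same 2 libraries on top. The 11 class I genes summed to 1274, 7374 and 8857 CPM across FOXR2 replicates 1 to 3 and to 1290, 1145 and 2474 CPM across Control replicates 1 to 3. H2-DMa shared the top 3 places of this order, FOXR2 replicate 3, FOXR2 replicate 2 and Control replicate 3. Nlrc5, the class I counterpart of Ciita, was at 9.33, 70.2 and 63.8 CPM against 14.2, 8.82 and 14.1 CPM (edgeR adjusted p = 0.137). H2-K1 had a log2 fold change of 2.18 ± 0.77 and B2m of 1.64 ± 0.57 (edgeR adjusted p = 0.146 and 0.138). The 16 interferon-stimulated genes summed to 612, 3422 and 2383 CPM against 1006, 458 and 826 CPM, and Isg15, Irf7 and Usp18 had edgeR adjusted p of 0.154, 0.161 and 0.162. Ifit2, Rsad2 and Cxcl10 departed from the order of the sum. Control replicate 1 had 180 CPM of Ifit2, above FOXR2 replicate 3 (127), and 109 CPM of Rsad2, above FOXR2 replicate 2 (94.0). Cxcl10 was at 14.0 CPM in FOXR2 replicate 3 and 45.2 CPM in Control replicate 2. In both lists edgeR and limma-voom called 0, an unadjusted p under 0.05 was found for 7 of 11 class I and 8 of 16 interferon-stimulated genes (24.9% over all genes), and DESeq2 called 6 of each higher (6.73% over all genes). Median log2 fold changes were 1.80 and 1.52.

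Genes that prepare or accompany class II peptides divided by library as well. Ctss, the protease that trims Cd74 in macrophages and other presenting cells, was at 0.261, 139 and 1.39 CPM across FOXR2 replicates 1 to 3. It was at 0.523 to 0.660 CPM in the libraries titled Control (edgeR adjusted p = 0.135), so 97.6% of its summed CPM lay in FOXR2 replicate 2. Ifi30, a lysosomal thiol reductase, was at 0.913, 45.1 and 3.503 CPM against 2.82, 14.6 and 28.3 CPM. Ctsd and Ctsb, lysosomal proteases of many cell types, had log2 fold changes of 1.17 ± 0.46 and 0.94 ± 0.47 (edgeR adjusted p = 0.178 and 0.264), and of 0.39 and 0.31 without FOXR2 replicate 2. Of 6 processing genes edgeR and limma-voom called 0 and DESeq2 0 of the 5 it tested. With edgeR 2 of the 6 had an unadjusted p under 0.05, against 24.9% of all genes. The median log2 fold change of the processing genes was 0.85, and 0.24 without FOXR2 replicate 2. Of the co-stimulation genes Cd86 was at 7.40 CPM in FOXR2 replicate 2 and 0 counts in the other 5, and Cd80 at 0.380 CPM and 0. Of the 3 that were tested, Cd274, the ligand PD-L1, was at 4.05, 16.96 and 12.7 CPM against 3.36, 1.85 and 3.83 CPM. Icosl was at 1.89, 2.78 and 2.92 CPM against 0.899, 1.07 and 1.22 CPM, and Cd40 had a log2 fold change of -1.95 ± 0.99, with -0.87 without Control replicate 2 and -3.48 without FOXR2 replicate 2. Their edgeR adjusted p were 0.109, 0.137 and 0.268, and edgeR and limma-voom called 0 of the 3. With edgeR 2 of the 3 had an unadjusted p under 0.05, against 24.9% of all genes. DESeq2 called 1, Cd274, higher, where it called 6.73% of all genes higher.

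The other class II genes were nearly absent outside the macrophage-rich library. H2-Ob, which restrains H2-DM, had 19 counts in FOXR2 replicate 2, 2 in FOXR2 replicate 3 and 0 in the other 4. H2-Oa, its partner, had 3 counts in FOXR2 replicate 2, 1 in Control replicate 3 and 0 elsewhere. H2-Eb2 had 0 to 2 counts in any library, and H2-Ea-ps, the row for the alpha chain that would pair with H2-Eb1, had 1 and 2 counts in FOXR2 replicates 2 and 3 and 0 in the others. The 5 rows found failed the filter of the edgeR fit. With no filter edgeR called 0 of the 5, and DESeq2, which gave an adjusted p to H2-DMb2 alone, called 0.

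Among 12304 candidate genes, each averaging 1 CPM or more, the nearest patterns were ranked by the root-mean-square difference of centred log2(CPM + 0.5) over the 6 libraries. The added 0.5 shrinks differences between libraries most for genes of low CPM. The distances of H2-Eb1, H2-DMb1 and Ciita are therefore set in part by it. The nearest to H2-Aa were Lyz2, the macrophage lysozyme (0.617), Asb4 (0.650) and Dusp26 (0.657). Nearest to H2-Ab1 were Vamp8, Tlr2, a pattern recognition receptor, and Hpse, or heparanase (0.316, 0.321 and 0.330). Hpse, Gsdmd, the pore-former of pyroptosis, and Lcp2, an adaptor of leukocyte signaling, were nearest to H2-DMb1 (0.154, 0.195 and 0.206). The nearest to Cd74 were Itgb5, an integrin chain, Nckap1l, a hematopoietic actin regulator, and Pld4 (0.640, 0.663 and 0.714). For H2-Eb1 they were Trp53inp2, Armcx3 and Rnf19a (0.114, 0.117 and 0.137), of which Trp53inp2 had 154, 173 and 163 CPM under the FOXR2 title against 64.6, 57.7 and 70.8 CPM under the Control title. For H2-DMa they were Tspan17, a tetraspanin, Mcf2l and Jph3 (0.173, 0.232 and 0.238), with Tspan17 at 20.2, 45.7 and 58.1 CPM against 9.05, 8.40 and 34.3 CPM. Among the 7 genes themselves H2-Ab1 and H2-DMb1 were nearest to each other (0.429), then H2-Aa and Cd74 (0.468), and H2-Eb1 and Cd74 were farthest apart (1.93).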

How the data were processed

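The authors deposited whole-number read counts per gene symbol and library, which were used as given. TopHat and DESeq2 are named, without versions, in the submitters' processing notes, which list hg19 although the symbols are of mouse genes. The sources used here do not name the counting tool, the annotation or the strand setting. Per the labels' protocols, a poly(A) library was read from one end over 51 bases. The 23 rows that hold dates were never named. The deposited sheet holds group names, which were only compared with the titles.

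Genes were kept by filterByExpr (minimum count 10) and fitted with edgeR 4.0.16 in R 4.3.3, with TMM factors, no covariate and a quasi-likelihood F test of 3 against 3 libraries. The fit was tested on simulated data. CPM values use the same factors, intervals are exact Poisson, and principal transcript lengths are from GENCODE M21 matched by symbol. DESeq2 1.42.0, limma-voom (limma 3.58.1), RLE factors, total-count scaling, no filter, a replicate block and leaving out each library were tried. The 7 genes, the marker lists and the pathway lists were chosen with earlier results of these data known. Named genes were the 7, the other class II genes, Foxr2, C1qa, Csf1r, Ptprc, the 3 nearest patterns of each of the 7 that averaged 1 CPM or more, and from each other list the 3 tested genes of lowest adjusted p (all, where 5 or fewer were tested). C1qb, C1qc, Cd209a, Ms4a1, Itgax, Ifng, Ifi30, Cd86, Cd80, Ifit2, Rsad2 and Cxcl10 were named after their values were seen. Some genes of these lists are not reported here. Since separate animals are not stated, the spread behind each p-value may not be the spread between animals.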

Additional observations from a re-analysis of the deposited data

How the results depend on the processing

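Depth limits Ciita, H2-DMb1 and H2-Eb1 most, with 91 to 153 counts each over all libraries. The number of genes called higher and lower among all tested, 119 and 181, was 942 and 938 with DESeq2, and 119 were called lower with total-count scaling. With each library left out it ranged from 1 to 123 higher and from 0 to 82 lower. Leaving out FOXR2 replicates 1 or 3 or any library titled Control brought the calls to 9 or fewer in either direction, with 2241 to 2954 genes at an unadjusted p under 0.05, and without FOXR2 replicate 2 they were 123 and 82. With the replicate number as a block edgeR called 0 and 0, with 2652 genes at an unadjusted p under 0.05. The replicate numbers gave no sign of pairing. Deviations of same-numbered libraries from their group means correlated at -0.0161, -0.241 and -0.0104, and FOXR2 replicate 1 went best with Control replicate 2 (0.249). With 3 libraries per group such correlations cannot exclude a pairing.

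The count of 5 genes with over 50% of their summed CPM in FOXR2 replicate 2 stayed at 5 under total-count scaling and RLE factors. With any other library left out the sum is smaller and each share larger, so the count could not have fallen. It could only have risen, through H2-Eb1 or H2-DMa, and it stayed at 5. The log2 fold changes of the 5 genes that passed the filter stayed above 0 in 12 alternatives, between 1.84 and 2.21 for H2-Eb1 and between 2.25 and 5.57 for H2-Aa. For H2-DMb1 and Ciita 5 alternatives gave a value, all above 0, and leaving out FOXR2 replicate 2 was not among them, since both then failed the filter. The log2 fold changes of some markers turned sign. That of Cd68 was -0.25 with the replicate block, and that of Lcp1 -0.067 with limma-voom and -0.29 with the block. With each library left out the range was -0.33 to 3.29 for P2ry12, -0.26 to 7.33 for Laptm5, -2.05 to 2.76 for Cd68, -2.14 to 4.04 for Lcp1, -0.94 to 0.051 for Coro1a, -0.18 to 0.12 for Zbtb46 and -0.74 to 0.35 for Batf3. The causes were not tested.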
